A study of Mus musculus with 24 samples.

Results

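The Ms4a genes described here, Ms4a4a, Ms4a4b, Ms4a4c, Ms4a6b, Ms4a6c, Ms4a6d and Ms4a7, were taken by symbol as a named group of membrane proteins of myeloid cells. They are 7 of the 56205 genes in the deposited count table of mouse liver RNA-Seq. The series compared whole livers of C57BL/6J mice on a high-fat diet (FFD, made with palm oil, fructose and cholesterol) with those of C57BL/6J mice on its control diet, as a model of diet-induced steatohepatitis with fibrosis. Each diet had 12 libraries of poly(A)-selected RNA, from mice that started the diet at 8 to 10 weeks of age and stayed on it for 20 weeks. The mice carried no transgene, both sexes were used with 6 mice per diet and sex, and no label gives the sex of a library. The comparison of the diets asks which Ms4a transcripts of the liver differ with diet-induced disease.

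Ms4a proteins cross the membrane several times and sit at the cell surface or in endosomes, where they associate with receptors and alter their signaling. The best known relatives are Ms4a1, which encodes the B cell antigen CD20, and Ms4a2, the beta chain of the mast cell IgE receptor. Ms4a4a is a macrophage protein that associates with the beta-glucan receptor Dectin-1 (Clec7a), and human genetics links MS4A4A to soluble TREM2. Ms4a7 marks macrophages, Ms4a6d has been described in a complex with Vsig4 that restrains the Nlrp3 inflammasome, and Ms4a4b is also known from T cells, where it associates with the receptor GITR (Tnfrsf18).

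The genes lie in 1 family cluster on chromosome 19 (GRCm38, GENCODE M21), which holds 19 Ms4a genes over 678559 bp from 10962293 to 11640851. The 7 members fall within 283811 bp of it, from 11321039 to 11604849, and only 2 further protein-coding genes, Ms4a4d and Gm8369, lie between the first and the last of them. The members are related in sequence to different degrees. Ms4a4b and Ms4a4c had 91.7% identical bases over their aligned coding sequences, with 226 codons each. Ms4a6b shared 85.4% with Ms4a6c and 81.2% with Ms4a6d, and Ms4a6c shared 79.0% with Ms4a6d. No other pair exceeded 68.3%. The second of 6 coding exons is shown for these 5 genes, because it lets the reader see how alike the transcripts are that reads had to be told apart by. Capitals mark the bases that differ within a subfamily, 17 of 120 bases in the Ms4a4b and Ms4a4c pair and 18 of 135 in the 3 Ms4a6 genes. The exon parts lie at chr19:11454652-11454771 (Ms4a4b, plus strand), chr19:11416329-11416448 (Ms4a4c, plus), chr19:11521671-11521805 (Ms4a6b, plus), chr19:11472393-11472527 (Ms4a6c, plus) and chr19:11601830-11601964 (Ms4a6d, minus).
Ms4a4b: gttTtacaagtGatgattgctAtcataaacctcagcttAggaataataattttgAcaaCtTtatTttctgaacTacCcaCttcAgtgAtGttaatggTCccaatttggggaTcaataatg
Ms4a4c: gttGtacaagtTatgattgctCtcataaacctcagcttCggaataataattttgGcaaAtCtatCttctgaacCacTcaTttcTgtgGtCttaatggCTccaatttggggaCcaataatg
Ms4a6b: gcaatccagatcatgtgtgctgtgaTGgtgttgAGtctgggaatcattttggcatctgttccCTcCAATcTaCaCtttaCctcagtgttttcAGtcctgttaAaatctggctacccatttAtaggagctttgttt
Ms4a6c: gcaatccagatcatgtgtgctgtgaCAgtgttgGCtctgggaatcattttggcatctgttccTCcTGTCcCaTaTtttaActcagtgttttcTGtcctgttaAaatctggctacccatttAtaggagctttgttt
Ms4a6d: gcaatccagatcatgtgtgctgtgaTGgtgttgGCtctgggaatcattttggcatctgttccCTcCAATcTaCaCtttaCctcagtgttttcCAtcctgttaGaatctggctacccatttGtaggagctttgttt

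Windows of 51 bases were used to ask how much of each annotated transcript is also found in another Ms4a gene. The share was 7.90% for Ms4a4c, 5.81% for Ms4a6c, 5.4% for Ms4a6b, 4.09% for Ms4a4b and 2.56% for Ms4a6d, and it was 0 for Ms4a4a and Ms4a7. Ms4a6c was the exception when every annotated gene was allowed, with 56.7% of its windows, since the antisense gene BE692007 overlaps it. BE692007 itself had 3 to 51 counts per FFD library and 0 to 25 per control library, with a log2 fold change of 1.38 (SE, standard error, 0.41; adjusted p = 0.0101). Antisense genes also overlap Ms4a4c (Gm5692) and Ms4a6b (Gm19261). Whether the counting used strand is not given in the sources used here, so values of Ms4a4c, Ms4a6b and Ms4a6c may include reads of the other strand.

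The RefSeq promoter windows (GRCm38.p6, 250 bases before to 50 after a transcription start) showed the same kinship. They were available for 6 members as 7 windows, with an outer and an inner start for Ms4a7. The Ms4a4b and Ms4a4c windows had 81.9% identical aligned bases and 8 shared runs of at least 10 bases, and the Ms4a6b and Ms4a6c windows had 85.3% and 4 such runs. None of the other 19 pairs of windows had a shared run of that length in its alignment. Windows are shown from 150 to 11 bases before the start of Ms4a4b (chr19:11443408-11443547, plus strand) and Ms4a4c (chr19:11407511-11407650, plus), with the runs in capitals that the other window also holds, and of the inner start of Ms4a7 (chr19:11334706-11334845, minus), with an AP-1 motif in capitals. None of these stretches overlaps an annotated exon. That of Ms4a4b lies outside any gene, and those of Ms4a4c and Ms4a7 lie in introns of longer annotated transcripts of the same gene.
Ms4a4b: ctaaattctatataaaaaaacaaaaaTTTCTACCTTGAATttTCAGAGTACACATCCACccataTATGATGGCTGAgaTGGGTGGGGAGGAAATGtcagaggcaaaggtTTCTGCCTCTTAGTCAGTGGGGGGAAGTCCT
Ms4a4c: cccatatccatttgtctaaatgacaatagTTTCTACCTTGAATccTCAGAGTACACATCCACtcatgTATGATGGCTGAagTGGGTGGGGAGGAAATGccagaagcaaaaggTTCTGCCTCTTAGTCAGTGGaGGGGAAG
Ms4a7: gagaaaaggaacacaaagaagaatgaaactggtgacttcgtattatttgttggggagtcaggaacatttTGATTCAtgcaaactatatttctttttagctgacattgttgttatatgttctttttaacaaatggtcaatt

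Member windows were poor in CpG, with a median of 1 CG and 40.0% G and C, against 7 and 52.7% over all 32851 promoter windows. Letters of 6 motifs were searched on both strands. The AP-1 motif TGANTCA, which reads alike on both strands, was in 2 of the 7 windows (Ms4a4b and the inner start of Ms4a7) and in 7.81% of all windows. TATAAA was in the Ms4a4b window, where it shares no base with the AP-1 motif, and in 13.6% of all. No member window held the PU.1 letters GAGGAAG (13.6% of all windows), the C/EBP letters TTGCNNAA (10.8%), a pair of interferon response half-sites (3.44%) or the ETS-IRF composite element (2.72%). These are matches of letters only, and other spellings of the same sites were not searched.

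The libraries held 14468418 to 22112552 counts each. Levels are given as CPM, edgeR's count unit relative to the TMM-adjusted library size. In that unit 3 counts of Ms4a7 equaled 0.173 CPM in control replicate 9 and 0.197 in control replicate 12. Relative to unadjusted library totals, 3 counts averaged 0.156 CPM in the control libraries. The defining transcripts of liver were present, with 8 of 8 hepatocyte markers among the 17913 genes tested. FFD replicate 3 stood apart. It held the granulocyte precursor transcripts Mpo (702 counts, at most 10 in any other library) and Ms4a3 (32 counts, 0 in all others), and it was the lowest FFD library for Gpnmb, Trem2 and Ms4a7. All 7 members were called higher with and without it (13.4% of genes were, without it). Libraries also split by Xist, which had 2664 to 6285 counts in replicates 1 to 6 of both diets and 0 to 3 in replicates 7 to 12. Ddx3y had 0 counts in every library of the first set. In the second set it had 448 to 761 counts on FFD and 476 to 1016 on the control diet. Both sets hold 6 libraries per diet, the number that the design gives per diet and sex. They are a description of the libraries that no label names.

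All 7 Ms4a transcripts were higher on FFD. The threshold was an adjusted p no greater than 0.01 together with a log2 fold change beyond 0.5 in either direction, by the quasi-likelihood test of edgeR adjusted after Benjamini-Hochberg. It called 13.2% of the 17913 genes tested higher and 4.99% lower, which with library totals in place of TMM became 21.4% and 1.26%. The log2 fold changes ran from 1.26 for Ms4a4b to 3.04 for Ms4a4a, with a median of 1.76 against -0.03 over all genes tested. None of the 7 was lower, also at an unadjusted p under 0.05, and DESeq2 and limma-voom called none lower either. In whole liver, more cells of a type and more RNA per cell cannot be told apart, and the transcripts of Kupffer cells, infiltrating macrophages and lymphocytes are measured together.

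The largest differences were those of Ms4a4a and Ms4a7, the 2 members best known from macrophages. Ms4a4a (ENSMUSG00000101389) was close to the detection limit on the control diet, with 0 to 13 counts per library (median 1) and 3 counts or fewer in 9 of 12 libraries. On FFD it had 6 to 58 counts, or 0.301 to 2.80 CPM with a median of 0.860, and 8 of the 12 libraries lay above the highest control library, replicate 11 with 0.736 CPM. Its log2 fold change of 3.04 (SE 0.55, adjusted p = 0.000113) ranked 117th from the top among all genes tested. The size of this fold is uncertain, because its control level rests on few counts. Without control replicates 6 and 11, the pair of control libraries with the highest Ms4a4a, it was 4.16 (SE 0.55), a setting chosen after the values were seen.

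Ms4a7 (ENSMUSG00000024672), with 2 counts or more in every library, rose from 0.917 ± 1.01 CPM (SD, n = 12) to 7.14 ± 4.06 (SD, n = 12). Control libraries spanned 0.108 to 3.14 CPM with a median of 0.501, and FFD libraries 1.65 to 14.9 with a median of 5.85. FFD replicate 3 was the only FFD library that did not exceed the highest control library, replicate 6. The log2 fold change was 2.92 (SE 0.45, adjusted p = 1.95e-05), rank 142 of 17913.

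The Ms4a6 genes moved by similar amounts. Ms4a6d (ENSMUSG00000024679) was the one member whose diets did not overlap, with 5.30 to 14 CPM on FFD (median 8.60) and 1.12 to 5.17 on the control diet (median 2.50). Such a gap with FFD higher was found for 1.48% of the genes tested. Without control replicate 6, Ms4a4c and Ms4a6c had it too, against 2.52% of genes, a setting chosen after the values were seen. Its log2 fold change was 1.70 (SE 0.22, adjusted p = 2.55e-06), the smallest SE among the 7.
Ms4a6c (ENSMUSG00000079419) ran from 5.13 to 12.7 CPM on FFD (median 8.85), and control libraries from 0.412 to 5.26 (median 1.75). A single FFD library, replicate 5, lay below the highest control library, replicate 6, and all 12 lay above every other control library. The log2 fold change was 1.86 (SE 0.32, adjusted p = 6.16e-05).
Ms4a6b (ENSMUSG00000024677) showed more overlap. Its FFD libraries spanned 2.84 to 5.02 CPM (median 4.06) and its control libraries 0.197 to 3.58 (median 1.37), so that 7 of 12 FFD libraries exceeded the highest control. The log2 fold change was 1.40 (SE 0.30, adjusted p = 0.000645).

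Ms4a4b and Ms4a4c, the pair that shares most of its sequence, had the lowest levels per transcript length on FFD and the fewest FFD libraries above the highest control. Ms4a4b (ENSMUSG00000056290) was at 0.797 to 2.07 CPM on FFD (median 1.10) and at 0.0658 to 1.29 on the control diet (median 0.420), and 4 of 12 FFD libraries lay above the highest control, replicate 6. Its log2 fold change was 1.26 (SE 0.28, adjusted p = 0.000842). Ms4a4c (ENSMUSG00000024675) was at 0.586 to 2.44 CPM on FFD (median 1.18) and at 0 to 1.43 on the control diet (median 0.244). For this gene 5 FFD libraries exceeded control replicate 6, and all 12 exceeded every other control library, of which the highest had 0.470 CPM. The log2 fold change was 1.76 (SE 0.37, adjusted p = 0.000558), and it was 2.23 without control replicate 6.

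**Figure D1:**
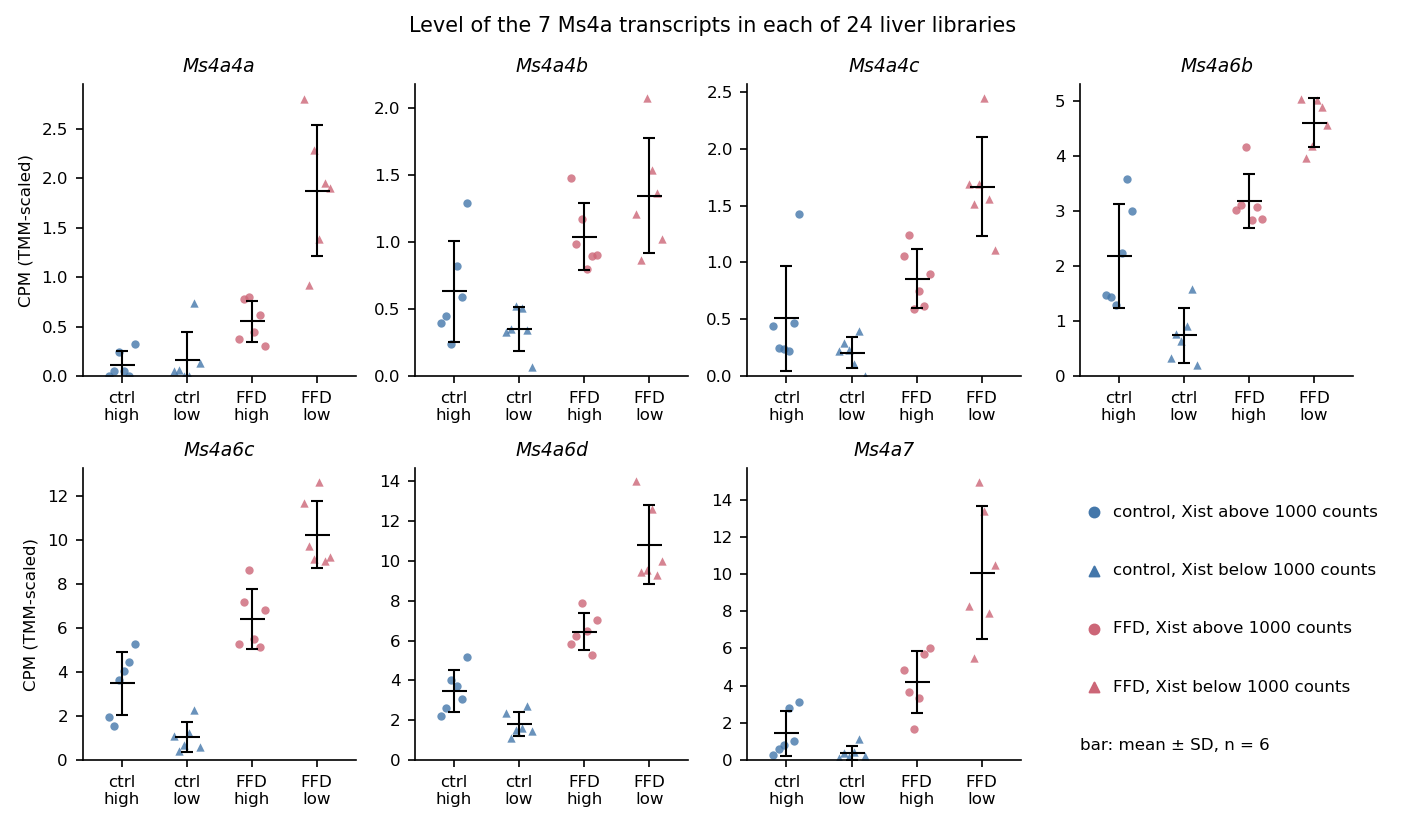
Level of each Ms4a transcript (y axis, CPM scaled by TMM, own scale per panel) in the 24 libraries, split by diet and by the Xist set of the library (high, above 1000 Xist counts, circles; low, below 1000, triangles). Bars give mean ± SD of 6 libraries; for Ms4a7 the 6 FFD libraries with low Xist sit between 5.47 and 14.9 CPM, above every control library, and the 6 control libraries with low Xist reach at most 1.13.

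The same few libraries were high or low across the family. Control replicate 6 was among the 2 highest control libraries for all 7 members, and control replicate 12 was among the 2 lowest for 5. On FFD, replicate 10 was among the 2 highest for 6 members and replicates 7 and 9 for 4 each. Control replicate 6 was also the highest control library for Csf1r (109 CPM), Ptprc (17.1 CPM) and Adgre1 (39.5 CPM), transcripts of macrophages and of white blood cells in general. All 7 members stayed called when any 1 of the 24 libraries was left out, and when control replicates 6 and 11 were left out together (14.2% of genes called higher).

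To compare the members with each other, CPM were divided by the length of the longest annotated coding transcript and given as a share of the sum over the 7 genes. Ms4a6d took the largest share on both diets, 32.6% ± 3.93 on FFD and 44.0% ± 10.2 on the control diet (SD, n = 12 each). Ms4a6c followed with 24.4% ± 3.79 and 24.1% ± 6.29. The share of Ms4a7 was 22.8% ± 7.43 on FFD and 10.2% ± 5.63 on the control diet, so that on FFD it did not differ from Ms4a6c beyond the spread between libraries. Ms4a6b had 7.98% ± 1.40 and 11.3% ± 4.42, and Ms4a4a 6.97% ± 3.01 and 3.45% ± 4.69. The Ms4a6b and Ms4a4a shares on FFD, and those of Ms4a6b and Ms4a7 on the control diet, lay within 1 SD of each other. Ms4a4c (3.84% ± 0.931 and 4.40% ± 2.73) and Ms4a4b (1.39% ± 0.440 and 2.51% ± 1.40) came last on FFD. On the control diet the mean share of Ms4a4a lay between those of Ms4a4b and Ms4a4c, within 1 SD of either. These shares describe per-length levels and were not tested. They rest on 1 annotated transcript per gene, 836 bases for Ms4a4a and 4750 for Ms4a4b. Before division by length these 2 had similar means on FFD, 1.21 and 1.19 CPM.

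Not every gene of the family was called. Of 15 other genes examined, the remaining Ms4a genes and the distant relatives Tmem176a and Tmem176b, 6 had enough counts to be tested and 3 were called higher. Ms4a14, the neighbor of Ms4a7, had 2 to 26 counts on FFD and 0 to 4 on the control diet, with a log2 fold change of 2.42 (SE 0.53, adjusted p = 0.000741). Tmem176a and Tmem176b, abundant in these livers at 179 ± 34.8 and 219 ± 37.3 CPM on the control diet (SD, n = 12), had log2 fold changes of 0.84 (SE 0.11) and 0.87 (SE 0.12).
Ms4a4d, which lies between Ms4a6b and Ms4a6d, was at 5.04 ± 1.17 CPM on FFD and 3.91 ± 1.0 on the control diet (SD, n = 12 each). Its log2 fold change was 0.37 (SE 0.15, adjusted p = 0.0464), which did not reach the threshold. The B cell gene Ms4a1 had 0.09 (SE 0.34, 95% interval -0.57 to 0.75) and Ms4a8a had 0.11 (SE 0.30, 95% interval -0.49 to 0.70). With Xist below 1000 counts 4 of the 6 were called, Ms4a4d among them at 0.66 (SE 0.18, adjusted p = 0.00968), and Ms4a1 was at 0.76 (95% interval -0.01 to 1.54) and Ms4a8a at 0.64 (95% interval 0.06 to 1.22).
The other genes were too low to test. Ms4a5, Ms4a10, Ms4a12, Ms4a13, Ms4a15, Ms4a18 and Ms4a19 had 0 counts in all 24 libraries, where 3 counts is the upper limit that a count of 0 allows per library. The mast cell gene Ms4a2 had at most 4 counts, in FFD replicate 3, and Ms4a3 was found only in that library.

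**Figure D2:**
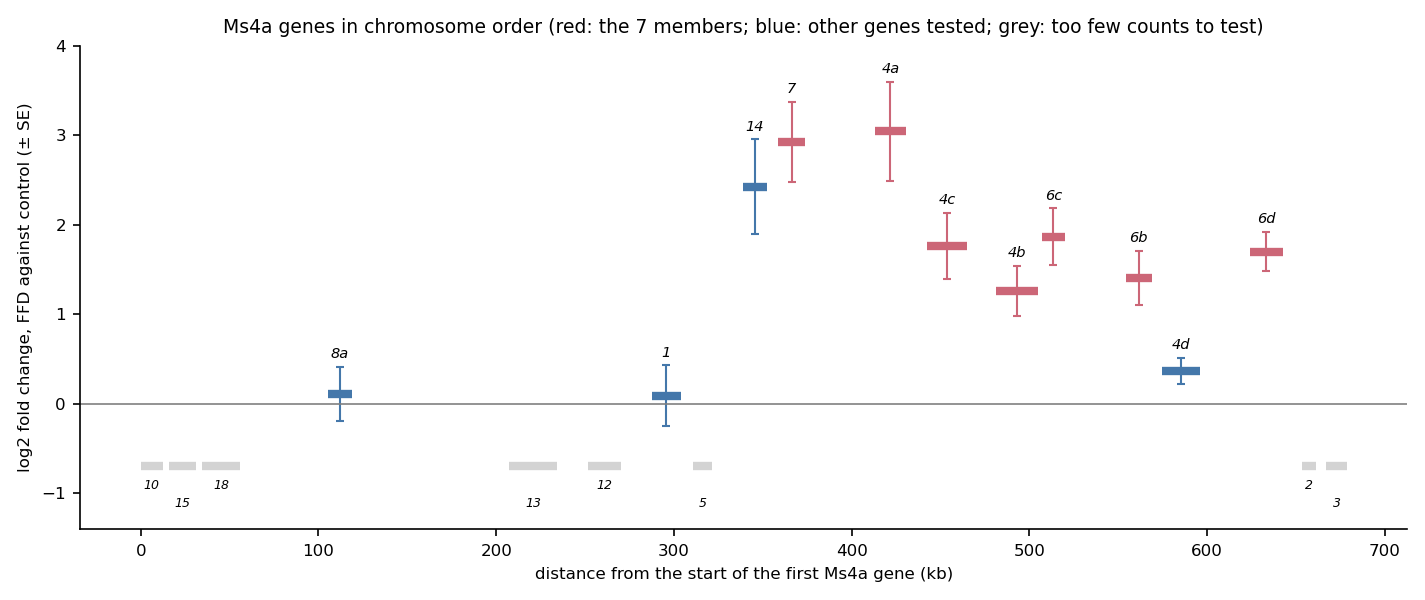
Ms4a genes in their order on chromosome 19, with the distance from the start of the first gene in kb (x axis) and the log2 fold change of FFD against control with its SE (y axis); gene names are shortened to what follows Ms4a, and genes with too few counts to test stand in grey below 0. The 7 members (red) lie between 1.26 and 3.04, with Ms4a4d (0.37) between 2 of them.

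To set the members beside general transcripts of white blood cells, the libraries were scaled to equal levels of Csf1r, the receptor that mononuclear phagocytes depend on, and separately of Ptprc, which encodes the leukocyte antigen CD45. Csf1r itself was at 118 ± 33.8 CPM on FFD and 59.0 ± 27.2 on the control diet, and Ptprc at 20.9 ± 3.82 and 9.49 ± 4.54 (SD, n = 12 each). Their log2 fold changes were 1.0 (SE 0.21) and 1.13 (SE 0.20). Both lay below the median of 1.45 of 10 pan-leukocyte and mononuclear phagocyte genes, so other leukocyte transcripts also rose relative to them. Relative to Csf1r, 4 of the 7 members were still called higher, against 2.22% of all genes tested, and relative to Ptprc also 4, against 1.61%. The same scalings called 63.7% and 68.8% of all genes lower, so these shares are not like those of the main test.
Ms4a7 and Ms4a4a had the largest of these values. Relative to Csf1r, the log2 fold change of Ms4a7 was 2.13 (SE 0.37, adjusted p = 1.12e-05) and relative to Ptprc 1.98 (SE 0.34, adjusted p = 3.85e-06). For Ms4a4a the values were 2.05 (SE 0.54, adjusted p = 0.00104) and 1.84 (SE 0.53, adjusted p = 0.00205). Ms4a6c was called in both with 0.99 and 0.86, as was Ms4a6d with 0.65 and 0.51.
The remaining members did not pass the threshold in either scaling. Ms4a4b had 0.31 relative to Csf1r (95% interval -0.31 to 0.92) and 0.14 relative to Ptprc (-0.44 to 0.71). Ms4a6b had 0.55 (adjusted p = 0.0418) and 0.37 (adjusted p = 0.126), and Ms4a4c 0.90 (adjusted p = 0.0154) and 0.70 (adjusted p = 0.0545).
The count depended on the reference transcript. With Adgre1, which encodes the macrophage antigen F4/80, in place of Csf1r, 2 members were called (0.916% of all genes), Ms4a7 with 1.95 and Ms4a4a with 1.73. With the lysosomal leukocyte transcript Laptm5 in place of Ptprc, which itself rose by 1.75 on the log2 scale, only Ms4a7 was called (0.547% of all genes), with 1.26 (SE 0.35, adjusted p = 0.00133). Ms4a4a then had 1.33 (adjusted p = 0.0133), and Ms4a4b, Ms4a6b and Ms4a6d were at or below 0, with -0.49, -0.24 and -0.09.

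**Figure D3:**
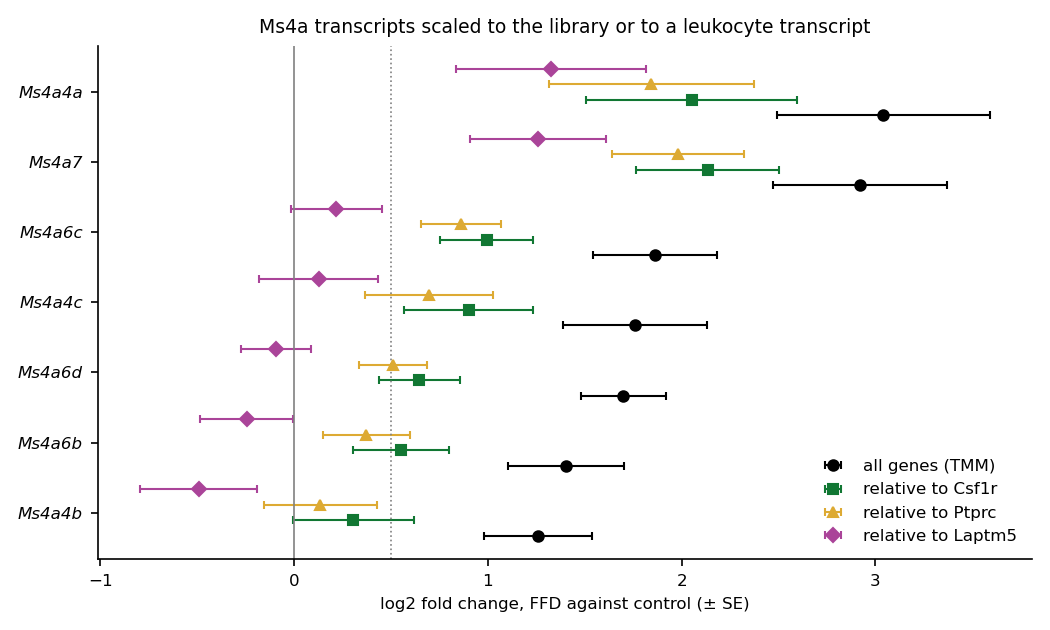
Log2 fold change of FFD against control with its SE (x axis) for each member, with libraries scaled over all genes (black) or to equal levels of Csf1r (green), Ptprc (yellow) or Laptm5 (purple); the dotted line is the fold threshold of 0.5. Ms4a7 and Ms4a4a stay at or above 1.26 under each of these scalings, and Ms4a4b goes from 1.26 to -0.49.

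The diet difference was larger in the libraries with Xist below 1000 counts. There all 7 members were called higher, against 14.3% of the genes tested in that set, and in each of the 7 every FFD library lay above every control library, a gap found for 12.6% of genes. With Xist above 1000 counts, only Ms4a6d was called (2.91% of genes), and it was also the only member whose diets did not overlap there (3.51% of genes). Without control replicate 6 they did not overlap for 4 members, Ms4a4a, Ms4a4c, Ms4a6c and Ms4a6d (6.04% of genes). The log2 fold changes of all 7 were above 0 in both sets.
Ms4a7 had a log2 fold change of 4.67 (SE 0.43) with Xist below 1000 counts and of 1.55 (SE 0.45, adjusted p = 0.0341) above. Ms4a6c had 3.31 (SE 0.31) and 0.89 (SE 0.25, adjusted p = 0.0295). Ms4a6b had 2.66 (SE 0.34) and 0.56 (SE 0.25, adjusted p = 0.147), and Ms4a6d had 2.59 (SE 0.21) and 0.90 (SE 0.19, adjusted p = 0.00631).
For these 4 genes the difference between the sets passed the test of the interaction of diet and set, which called 4.04% of all genes in either direction. It did not for Ms4a4c (2.94 and 0.74, interaction adjusted p = 0.0275), Ms4a4b (1.96 and 0.72, adjusted p = 0.135) or Ms4a4a (3.40 and 2.20, adjusted p = 0.512).

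**Figure D4:**
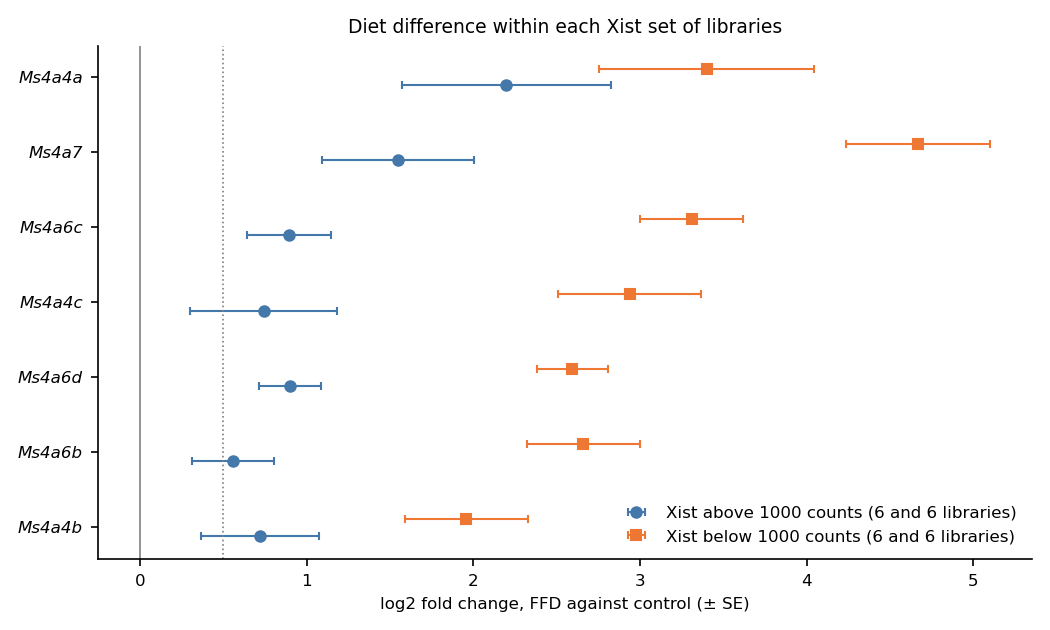
Log2 fold change of FFD against control with its SE (x axis) for each member, fitted separately in the 12 libraries with Xist above 1000 counts (blue) and the 12 with Xist below (orange); the dotted line is the fold threshold of 0.5. Every member lies further right with Xist below 1000 counts, from 1.96 for Ms4a4b to 4.67 for Ms4a7.

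The sets were also compared within each diet. Among the control libraries, the log2 difference of the set with Xist below 1000 counts from the other was between -1.82 (Ms4a7) and -0.83 (Ms4a4b) for 6 members and 0.56 for Ms4a4a. None of these passed the threshold, and 1.89% of all genes were called lower. Of the Kupffer cell markers, 7 of 10 were called lower there and 1 higher (C6, 3.92), and of the pan-leukocyte genes 4 of 10 were called lower, Csf1r by -1.16 and Adgre1 by -1.48. None of 11 lipid-associated macrophage markers (median -0.17) or 12 monocyte markers (median 0.06) was called. On FFD, 5 of 7 members were called higher where Xist was below 1000 counts, against 4.13% of all genes, with Ms4a4a at 1.77 (SE 0.32), Ms4a7 at 1.28 (SE 0.29) and Ms4a6d at 0.76 (SE 0.13). Markers of other cells differed between the same FFD libraries, with 7 of 11 lipid-associated macrophage markers higher (median 0.92), 3 of 6 cholangiocyte markers higher (median 2.39), 3 of 9 stellate cell markers higher (median 0.33) and 3 of 8 hepatocyte markers lower (median -0.59). The part of these other transcripts in the members' difference between sets was not tested.

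Of 10 genes whose products have been reported to act with Ms4a proteins, 8 were called higher (13.2% of all genes tested were) and none lower. The median log2 fold change of the 10 was 1.46. Trem2, the lipid receptor of macrophages, went from 1.72 ± 1.38 to 19.4 ± 8.29 CPM (SD, n = 12 each), a log2 fold change of 3.47 (SE 0.35, adjusted p = 1.82e-07). The beta-glucan receptor Clec7a had 2.47 (SE 0.29) and the lysosomal glycoprotein Cd68 1.84 (SE 0.23). The signaling adaptors Tyrobp and Fcer1g had 1.52 and 1.45, the kinase Syk downstream of them 1.46, the inflammasome sensor Nlrp3 1.41 and the cytokine gene Il1b 1.23. Both genes below the threshold are partners named above. Vsig4, the reported partner of Ms4a6d, had 0.38 (SE 0.34, 95% interval -0.28 to 1.04), and Tnfrsf18, the partner of Ms4a4b, had 0.85 (SE 0.26, adjusted p = 0.0106).

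Markers of the cells that could carry these transcripts did not all move alike. All 10 pan-leukocyte and mononuclear phagocyte genes were called higher, from 1.0 (Csf1r) to 1.86 (Lyz2), and their summed level was 673 to 1385 CPM on FFD and 198 to 576 on the control diet. Of 11 markers of lipid-associated macrophages, 8 were higher, Gpnmb the most (5.49), and Fabp5 was lower (-2.01). Of 12 monocyte markers 9 were higher, with Chil3 at 4.53 and Fn1 at -0.52 at the ends of the list. Without FFD replicate 3 it was 8, with Chil3 at 2.45 and Fn1 called lower at -0.62. Levels in this list were far apart, with a control mean of 1697 CPM for Fn1 and 0.145 CPM for Chil3. Which cells of the liver carry Fn1 was not tested.
Kupffer cell markers were divided. Cd5l rose (1.69) and Cd163 fell by 2.51 on the log2 scale, 3 of 10 were called higher (2 without FFD replicate 3) and 1 lower, and their summed level overlapped, at 470 to 1234 CPM on FFD and 515 to 783 on the control diet. The medians were 2.87 for lipid-associated macrophages, 1.40 for monocytes and 0.29 for Kupffer cells.
Over all libraries, lymphocyte lists had few calls. One of 12 T cell markers was higher (Cd5, 1.81, with Cd4 lowest at -0.92), 1 of 8 NK cell markers (Eomes, 2.88, with Gzma lowest at -0.53) and 1 of 8 B cell markers (Cd22, 1.38, with Ighm lowest at -0.53). In the libraries with Xist below 1000 counts more were higher. These were 6 of 12 for T cells (median 1.86, Cd4 lowest at -1.05) and 3 of 8 for NK cells (median 1.71). For B cells 2 of 8 were higher (median 1.24) and 1 was lower, with Ighm lowest at -1.30. Above 1000 counts no marker of these 3 lists was called. T cell calls numbered 2 without FFD replicate 3 and 3 without control replicates 6 and 11. Summed T cell markers were at 5.02 to 15.4 CPM on FFD and 3.46 to 14.4 on the control diet. Dendritic cell markers were higher for 3 of 10 (Flt3 1.45, Zbtb46 lowest at 0.06).
Of 8 neutrophil markers tested, 6 were higher, Ngp the most (6.19, with Mmp9 lowest at 1.19 and not called), but 3 without FFD replicate 3, where Ngp was at 1.71 and not called. Their summed level was 6.81 to 228 CPM on FFD, the highest in that library, and 2.07 to 7.98 on the control diet. Kit was the only 1 of 7 mast cell and basophil markers with enough counts, at 0.05 (SE 0.12). Outside the leukocytes, 5 of 6 cholangiocyte markers (Cftr 3.10, Sox9 lowest at 0.55) and 6 of 9 stellate cell markers (Col1a1 3.12, Reln lowest at 0.13) were higher, 1 of 8 sinusoidal endothelial markers was (Stab2 0.57, but 0.44 and not called without FFD replicate 3, Clec4g lowest at -0.47), and 6 of 8 hepatocyte markers were lower, but 3 with library totals for scaling (Hnf4a highest at -0.40, Serpina1c lowest at -1.34). The part of each cell type in the Ms4a difference was not tested.

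**Figure D5:**
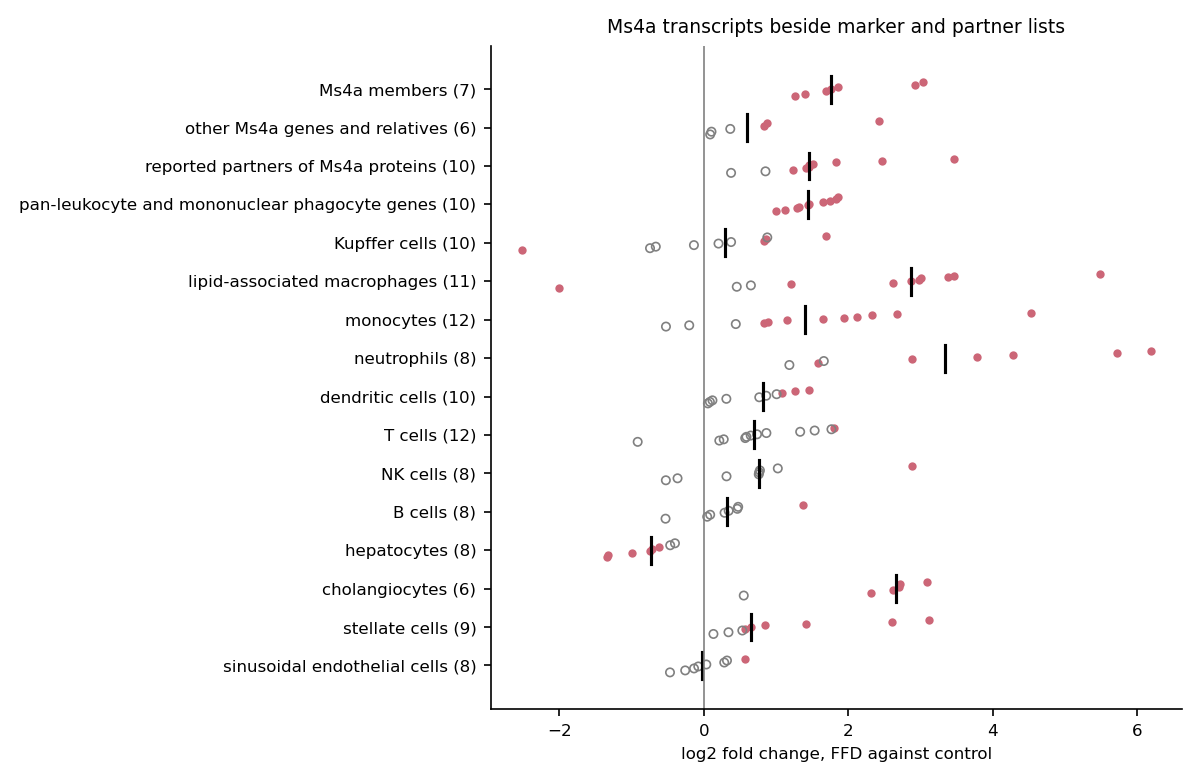
Log2 fold change of FFD against control (x axis) for the genes of each list (y axis, number of genes tested in parentheses); filled points passed the threshold, open points did not, and the vertical bar is the median of the list. The Ms4a members have a median of 1.76, between those of the pan-leukocyte genes (1.45) and of the lipid-associated macrophage markers (2.87).

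Beyond the diet and the Xist set, the members varied from library to library only partly together. After the mean of each diet and set was subtracted from log2(CPM + 1), Pearson's r over the 24 libraries ranged from 0.17 to 0.84 in the 21 pairs, with a median of 0.41. Ms4a6c and Ms4a6d, the Ms4a6 pair with the lowest identity in coding sequence (79.0%), passed the Benjamini-Hochberg adjustment over the 21 with both measures. They had r of 0.84 and Spearman's rho of 0.84 (p = 1e-05 for both, the smallest that 100000 permutations within diet and set can give, adjusted 0.00021). Leaving out the 2 most distant libraries gave r of 0.83. No other pair passed by Pearson's r, and 1 other by Spearman's rho. Ms4a6b and Ms4a6c had r of 0.70 (permutation p = 0.00483, adjusted 0.0507) and rho of 0.71 (permutation p = 0.00114, adjusted 0.012), and r of 0.59 without the 2 farthest. Ms4a4b and Ms4a4c, the pair with the most similar sequence, had r of 0.59 (permutation p = 0.0146, adjusted 0.0613), and Ms4a4a and Ms4a7, which rose most, had 0.27 (permutation p = 0.194, adjusted 0.226).

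The 3 genes most like each member were named from the same subtracted values over the 24 libraries, among 13928 genes with a mean of at least 10 counts, as a description of these libraries that share depth and cell makeup. For Ms4a6c they were Slfn2 (r = 0.90), Ptprc (0.89) and Ms4a6d (0.84), and for Ms4a6d Sh3kbp1 (0.85), Ms4a6c (0.84) and Evi2b (0.82). For Ms4a6b they included Gpsm3 (0.80) and the leukocyte receptor Lair1 (0.78). Ms4a4c was nearest to Unc93b1 (0.84), the chaperone of endosomal Toll-like receptors, Rasa4 (0.80) and the leukocyte tetraspanin Cd37 (0.80), and Ms4a4b to Shisa5 (0.81), the NF-kappaB inhibitor Nfkbie (0.77) and Rab19 (0.75).
The members that rose most differed from these. Ms4a7 was most like Spp1 (0.83), the secreted phosphoprotein osteopontin, the protease inhibitor Timp1 (0.83) and the lipid enzyme Lpcat2 (0.83). Ms4a4a, with its low counts, was most like Tmem229b (0.78), Arhgap44 (0.78) and Vstm4 (0.77).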

How the data were processed

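Counts were used as the authors deposited them, whole reads per gene without normalization, for 56205 Ensembl IDs and 24 libraries. The submitters' processing notes name bcl2fastq, STAR 2.7.3a and the mm10 build. The study's methods name the exon quantification pipeline and PISCES for reads aligned to a human reference. For the mouse libraries the counting program and annotation are not given in the sources used here. GENCODE M21 gave a symbol for 51745 of the IDs. Titles tied columns to libraries, and diets came from the labels. The members and lists were chosen with earlier results of these data known.

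The 17913 genes detected (1 count or more) in 12 or more libraries were tested with edgeR 4.0.16 in R 4.3.3 (TMM, quasi-likelihood, diet as the only term, Benjamini-Hochberg). For members relative to a reference transcript, effective library sizes were set proportional to its TMM-scaled CPM. The sets split at 1000 Xist counts and were fitted apart and with an interaction. Standard errors are the absolute log2 fold change over the root of F, and 95% intervals use the normal quantile. Tested on simulated counts of 17737 genes for FFD against control, this recovered 86% of 100 genes changed 2-fold and 98% of 100 changed 4-fold, with 2 unchanged genes called. The changed genes were drawn only from genes above a minimum mean count that Ms4a4a, Ms4a4b and Ms4a4c did not reach. These recoveries therefore do not cover those 3 members. Alternatives were DESeq2 1.42.0, limma-voom (limma 3.58.1), 2 scalings, 3 filters, 2 thresholds, the replicate block, the Xist set as covariate and each library left out. Alignments used Biopython 1.88 over columns without gaps.

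No libraries of a diet were alike within sampling noise (lowest chi-square per degree of freedom 10.1). Nothing says that libraries came from separate cages or litters, and intervals of counts cover counting error only. Named were the 7 members, other Ms4a genes with Tmem176a and Tmem176b, the reported partners, Csf1r, Ptprc, Adgre1 and Xist, the highest and lowest gene of each list, and the 3 genes most like each member, of which 1 is not reported here. C6, Mpo, Gpnmb, BE692007, Gm8369, Gm5692, Gm19261, Ddx3y and Laptm5 were named after their values were seen.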

Additional observations from a re-analysis of the deposited data

Results flagged for a closer look

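For 4 members the effect of the diet differed between the libraries with Xist below 1000 counts and those above, by edgeR's test of the interaction with Benjamini-Hochberg adjustment over 17913 genes. The difference between the log2 fold changes was 3.11 for Ms4a7 (standard error 0.69, adjusted p = 0.00488), 2.41 for Ms4a6c (standard error 0.41, adjusted p = 0.00062), 2.09 for Ms4a6b (standard error 0.42, adjusted p = 0.00237) and 1.68 for Ms4a6d (standard error 0.28, adjusted p = 0.000573). The same test gave 1.52 for Csf1r (standard error 0.27, adjusted p = 0.000782), 1.52 for Ptprc (standard error 0.22, adjusted p = 0.000131) and 2.02 for Adgre1 (standard error 0.37, adjusted p = 0.000947), and these move with the members. The share of these transcripts in the members' difference was not tested.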

How the results depend on the processing

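All 7 members were called higher, and none lower, with DESeq2 (14.7% of genes called higher) and limma-voom (13%). The same held with library totals (21.4%) or DESeq2 size factors (13.6%) for scaling, no filter (8.89%) and the Xist set as covariate (13.5%). It held with both other thresholds, an adjusted p at most 0.05 alone (20.7%) and a log2 fold change over 1 (9.43%). With each library left out, 7 were called higher and none lower in all 24. Without control replicates 6 and 11 it was also 7. edgeR's default filter removed Ms4a4a, the member with the largest log2 fold change, and left 6 to test. All 6 were called (14.4% of genes called higher). With at least 10 counts in every library the count fell to 1, because only Ms4a6d was left to test, and in the libraries with Xist above 1000 counts it fell to 1, where the cause was not tested. Relative to Csf1r 4 members were called, but 2 with Adgre1 in its place. Relative to Ptprc 4 were called, but 1 with Laptm5. Of 21 pairs of members 1 passed by Pearson's r, also with a pseudocount of 0.1, but 20 when only the diet mean was subtracted, since the sets then add to it, and by Spearman's rho 2, 2 and 18. Neutrophil markers called higher went from 6 to 3 without FFD replicate 3. Library totals moved the median log2 fold change of all genes from -0.03 to 0.26 and the median of the members to 2.04, with 3827 genes called higher and 226 lower in place of 2372 and 894. Same-numbered replicates of the diets were not treated as paired in the main test. Correlations of their deviations from the diet mean ran from -0.0877 to 0.359, with the own number as best partner for 2 of 12. The Xist sets hold the same replicate numbers in both diets and are part of these correlations, which cannot show whether mice were paired. With the replicate block, all 7 members were called (7 of 7, against 11.5% of genes called higher), with log2 fold changes from 1.37 (Ms4a4b) to 3.21 (Ms4a4a). Depth limits Ms4a4a most, with 3 counts or fewer in 9 control libraries.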
